A study of Mus musculus with 4 samples.

Results

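The cells described here are thymocytes that carried Cd8 transcripts, had come to hold Cd5 transcripts, and showed neither the cell cycle transcripts nor the exit receptor used to leave out dividing and mature cells. They were chosen by counts of unique transcript molecules (UMIs). A cell needed at least 1000 UMIs in all, at least 2 of Cd5, at most 1 of Itm2a, at least 3 of Cd8a and Cd8b1 together, and 0 of Mki67, Top2a and S1pr1. The rule found 502 of 8961 barcodes, of which 225 of 4374 were in the turnover library and 277 of 4587 in the autonomy library. Cells that met every other term but held 0 UMIs of Cd5 were the reference, and there were 2679 of them in turnover and 3073 in autonomy. The 7 genes named in the rule chose the cells, so their own values are given as description. The other transcripts were read in the same cells, so their differences describe the chosen cells.

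In the thymus, double positive (DP) cells carry both CD4 and CD8, rearrange the T cell receptor (TCR) alpha gene and test the resulting receptor on self peptides. A receptor that signals weakly to moderately starts positive selection: MAP kinase and calcium signals switch on Egr1 and Nr4a1, the activation marker Cd69 and the nuclear factor Tox appear, and the recombinase genes Rag1 and Rag2 are turned down. CD5 is a surface receptor that dampens TCR signals, and its level on thymocytes is known to follow the strength of the signal received.

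Wild type mouse thymi had been grafted, and their thymocytes were analysed 28 days later after sorting for DN3-DN4, immature single positive and double positive stages. Turnover names the state in which thymocytes are replaced by newly arriving progenitors, and autonomy the state in which a thymus that gets no such progenitors keeps producing T cells from those it already holds. Each condition had 1 droplet 5′ gene expression library and 1 matched library of rearranged TCR chains, V(D)J. Host strains and the number of animals behind a library are not in the labels. Among autonomy members 97 held Xist alone, 72 Y-linked transcripts alone and 5 both, while turnover members held Y-linked transcripts and 0 Xist.

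A condition was a single library, so the spread between animals is unknown and differences carry no test. Intervals are exact 95% intervals that cover counting error only and treat UMIs and cells as independent. The expression tables held 20163286 UMIs in turnover and 16388810 in autonomy. The libraries shared 31 barcodes, of which 0 belonged to Cd5-positive cells of both and 13 to Cd5 0 cells of both. Most autonomy cells shared their TCR beta chain with other cells, as given with the TCR chains, and intervals can be too narrow there.

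Cd5-positive cells were more deeply read than the reference, which bears on every comparison with it. Their median was 2346 UMIs (range 1399 to 6803) in turnover and 2909 (1000 to 15714) in autonomy, against 1852 and 2263 in Cd5 0 cells. The median cell showed 1303 and 1639 genes, and mitochondrial transcripts made up a median of 2.81% and 2.30% of its UMIs. Cd5-positive cells were 7.13% (6.25 to 8.08) of the 3157 gated turnover cells and 7.45% (6.63 to 8.35) of the 3716 gated autonomy cells. The share was higher in deeper cells. It was 1.05% from 1000 to below 1500 UMIs and 19.5% from 3000 to below 5000 UMIs in turnover, and 2.53% and 17.7% in autonomy. When every cell was thinned to 1000 UMIs the shares were 3.29% and 3.01%. Levels below are therefore summed over cells and divided by all UMIs of the same cells, on the usual CPM scale, and main ratios are also given against Cd5 0 cells weighted to the same depth classes, called the depth-standardised ratio.

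Most members sat near the threshold. Exactly 2 Cd5 UMIs were found in 101 turnover and 98 autonomy cells, 3 in 43 and 57, 4 or 5 in 39 and 61, and 6 or more in 42 and 61, with highest counts of 17 and 16. Just outside the rule, 253 turnover and 366 autonomy cells held 1 Cd5 UMI. Cells with 1 and with 2 Cd5 UMIs stood at 132 and 200 CPM of Egr1 in turnover and at 49.1 and 89.7 in autonomy, so the threshold cut through a gradient. Itm2a, a membrane protein gene linked to positive selection, was at 0 in 171 turnover and 230 autonomy members.

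Checked against its label, the population held the marker transcripts in most but not all cells. A UMI of Egr1, Tox or Cd69 was found in 75.6% (69.4 to 81.0) of members in turnover and 73.3% (67.7 to 78.4) in autonomy, against 24.7% and 20.2% of the shallower Cd5 0 cells. UMIs of all 3 occurred together in 30 turnover cells (13.3%) and 31 autonomy cells (11.2%). A Cd4 UMI was found in 62.2% of turnover and 76.2% of autonomy members, against 82.7% and 87.7% of Cd5 0 cells. For members without a Cd4 UMI the label was not borne out by a transcript of both coreceptors, since the sort also took earlier stages and immature single positive cells carry Cd8 too. Members with a UMI of Klf2, a factor of mature thymocytes, numbered 5 in turnover and 28 in autonomy.

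Egr1 encodes a zinc finger factor induced within minutes of TCR engagement. Over both libraries it had the highest ratio to Cd5 0 cells of the genes compared, which had to reach a count minimum given below. Nr4a1, Nab2 and Egr2, under that minimum, had higher ratios. In turnover, 180 UMIs in members gave 311 CPM and 154 UMIs in Cd5 0 cells gave 28.2 CPM, a ratio of 11 (8.82 to 13.7). In autonomy, 302 and 207 UMIs gave 334 and 27.8 CPM, a ratio of 12 (10.0 to 14.4). The depth-standardised ratios were 9.82 and 13.4, but in turnover the ratio was 5.71 among cells of at least 3000 UMIs and 7.0 among cells with a Cd4 UMI. Egr1 UMIs were seen in 24.4% of turnover and 24.9% of autonomy members, against 2.72% and 2.41% of Cd5 0 cells, so about the same minority of members held it in both conditions. After thinning each cell to 1000 UMIs the shares were 17.8% and 17.3% against 1.34% and 1.46%.

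Cd69, which encodes a surface protein that holds activated cells in the tissue, stood at 388 CPM in turnover members and 43.3 in Cd5 0 cells, a ratio of 8.97 (7.44 to 10.8). The autonomy levels were 241 and 27.4 CPM, a ratio of 8.79 (7.23 to 10.7). Tox, needed for CD4 T cell development, was the most widely seen of the marker transcripts, with UMIs in 61.8% and 60.3% of members. It stood at 514 CPM against 132 in turnover, a ratio of 3.89 (3.39 to 4.46), and at 403 against 79.7 in autonomy, a ratio of 5.06 (4.43 to 5.77). Depth-standardised ratios were 8.34 and 7.64 for Cd69 and 3.58 and 4.96 for Tox.

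**Figure D1:**
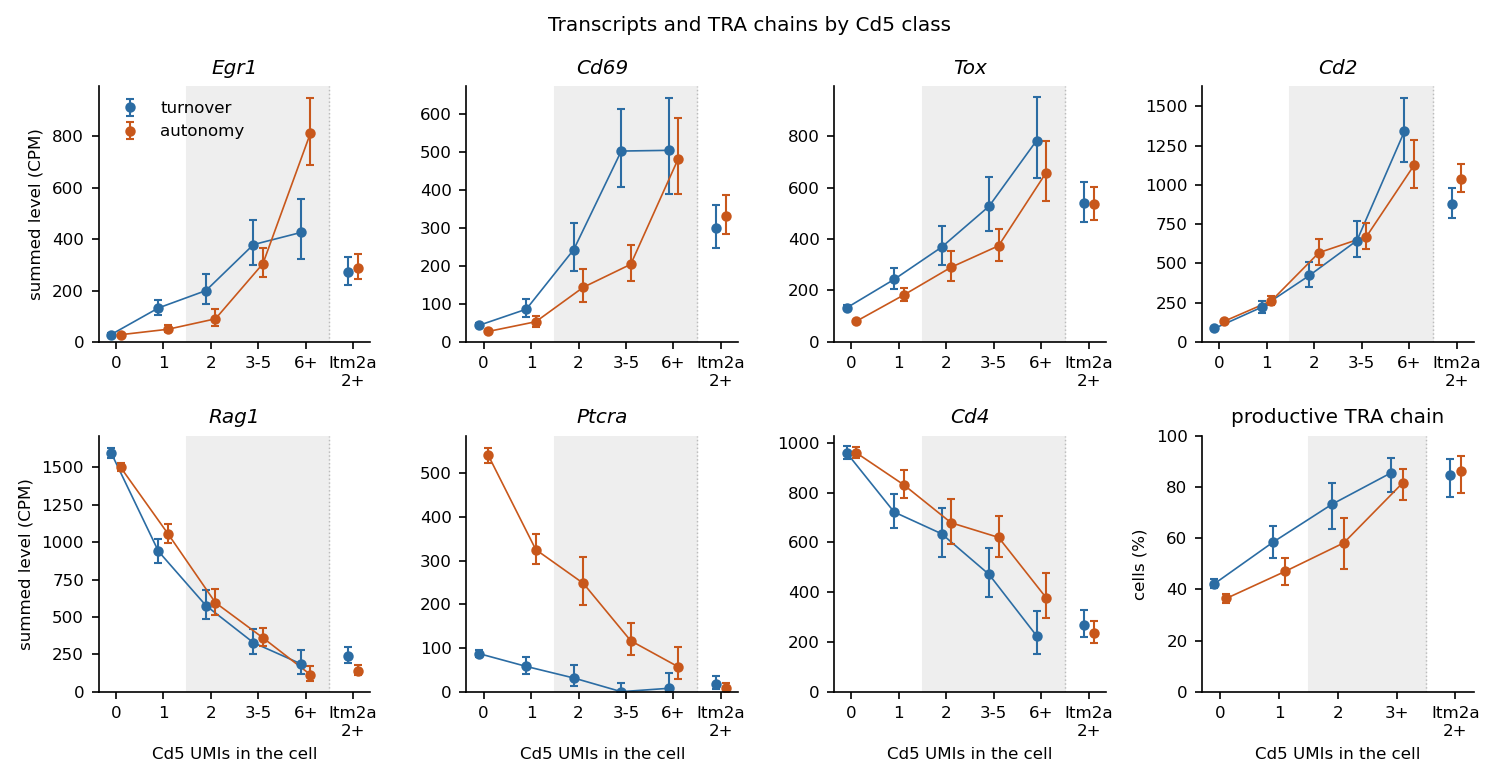
Summed level in CPM (y axis, from 0) of Egr1, Cd69, Tox, Cd2, Rag1, Ptcra and Cd4, and the share of cells with a productive TCR alpha (TRA) chain in percent, by the number of Cd5 UMIs in the cell (x axis), with otherwise gated cells holding 2 or more Itm2a UMIs at the right. Blue points are turnover, orange points autonomy, bars are exact 95% counting intervals and grey marks the Cd5-positive classes; Egr1, Cd69, Tox, Cd2 and TRA points stand higher, and Rag1 and Cd4 points lower, in the highest Cd5 class than at Cd5 0 in both libraries.

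The marker levels were graded within the members. In turnover, Egr1 stood at 200 CPM in cells with 2 Cd5 UMIs, 379 in cells with 3 to 5 and 426 in cells with 6 or more. In autonomy the values were 89.7, 305 and 813. Tox went from 368 to 527 and 783 CPM in turnover and from 290 to 374 and 658 in autonomy. Egr1 in the highest class of autonomy was thus above that of turnover, while Tox was not. Cells with 2 or more Itm2a UMIs, which the rule left out, stood at 272 CPM of Egr1 in turnover and 289 in autonomy, inside the range of the Cd5-positive classes. More Cd5 UMIs are also more likely in deeper cells, and the classes were not matched for depth.

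Over all genes, 4483 were compared, those expected at the pooled level to reach 20 UMIs in the smaller gate of both libraries. A gene was called higher or lower at a ratio of 1.5 or more or its inverse. In turnover, 185 genes were higher (4.13%) and 410 lower (9.15%). In autonomy, 145 were higher (3.23%) and 385 lower (8.59%). In both libraries 95 genes were higher (2.12%) and 189 lower (4.22%), and 85 (1.90%) and 117 (2.61%) of these were called the same way with the depth-standardised reference too. That reference alone called 4.93% of genes higher and 7.34% lower in turnover, and 3.37% and 6.07% in autonomy. The shared higher genes were 51.4% of those called in turnover and 65.5% of those in autonomy, and the shared lower genes 46.1% and 49.1%.

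The balance of higher and lower calls depended on scaling, and the count minimum bears on it too. Cd5 0 cells held 5452442 UMIs in turnover and 7448384 in autonomy, against 579691 and 905071 in members, so they dominate the pooled level. Genes found mainly in Cd5 0 cells thus reached the minimum more readily than genes found mainly in members. The balance is therefore a description of the compared genes. The median gene stood at a log2 ratio of -0.06 in turnover and -0.12 in autonomy. TMM scaling, which centres on the bulk of genes, moved every log2 ratio of autonomy up by 0.12 and gave 222 higher and 237 lower genes, so that 48.4% of called genes were higher in place of 27.4%. In turnover it gave 209 and 352, or 37.3% in place of 31.1%. The depth-standardised reference gave 40.2% in turnover and 35.7% in autonomy.

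**Figure D2:**
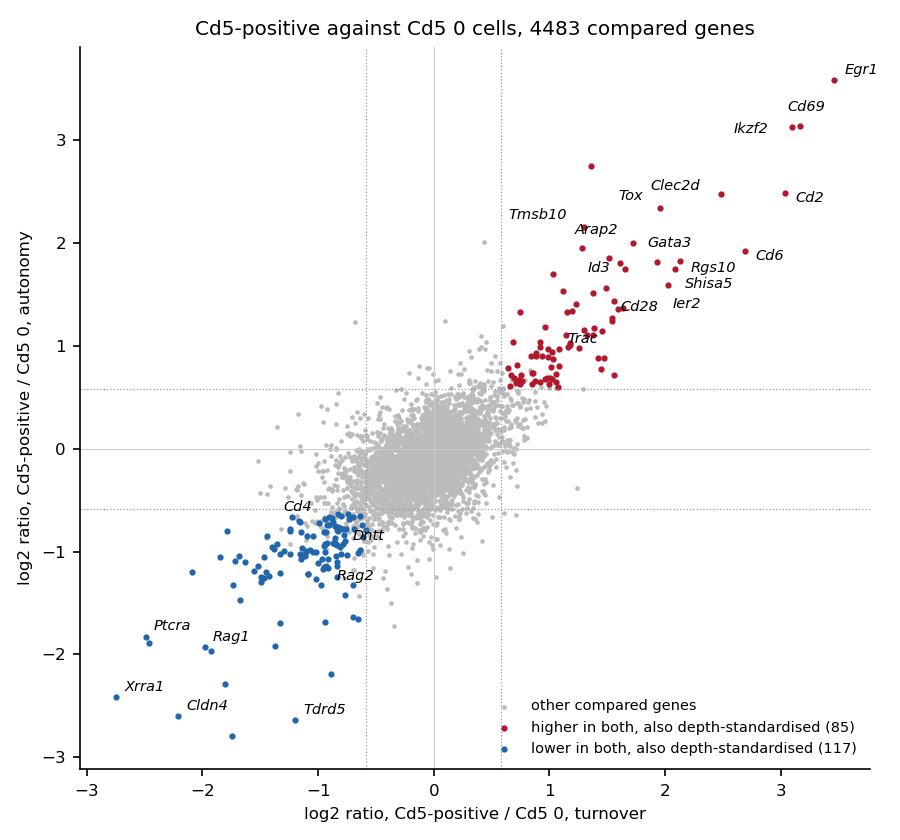
Log2 ratio of Cd5-positive to Cd5 0 cells in turnover (x axis) and autonomy (y axis) for 4483 compared genes, 1 point a gene. Red and blue mark the 85 genes higher and 117 lower in both libraries with and without the depth-standardised reference, dotted lines mark a ratio of 1.5 and its inverse, and Egr1, Cd69, Ikzf2 and Cd2 lie furthest up and right while Rag1, Ptcra, Xrra1 and Cldn4 lie at the lower left.

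Response genes that are induced early by the TCR made up a list of 15. Most had few UMIs in Cd5 0 cells, and 4 reached the count minimum: Egr1, Junb, Ier2 and Dusp2, each higher in both libraries. Of all compared genes 2.12% were higher in both. The minimum was set at the level of both gates pooled. In turnover Egr1 had 180 UMIs in members and 154 in Cd5 0 cells, and Ier2 77 and 178. At the Cd5 0 level alone these 2 would not have reached it. The count of 4 was thus partly set by the filter and is a description. Ier2, an immediate early gene, had ratios of 4.07 (3.07 to 5.34) in turnover and 3.01 (2.56 to 3.54) in autonomy. Dusp2, a phosphatase that switches off MAP kinases, had 2.46 (1.89 to 3.18) and 2.23 (1.98 to 2.5). Junb, a subunit of the factor AP-1, had 2.77 (2.13 to 3.56) and 1.84 (1.52 to 2.22), and 1.22 in autonomy among cells with a Cd4 UMI, below the fold.

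The 11 list genes under the minimum are given by their UMIs. Nr4a1, an orphan nuclear receptor whose promoter is widely used to report TCR signals, had 115 UMIs in turnover members and 24 in the far larger Cd5 0 pool, a ratio of 45.1 (28.8 to 73.2). In autonomy it had 192 and 30, a ratio of 52.7 (35.7 to 80.2). The UMIs came from 11.1% and 15.5% of members, and their level moved from 27.4 CPM at 2 Cd5 UMIs to 310 at 6 or more in turnover and from 53.8 to 549 in autonomy. Few Cd5 0 UMIs lie behind this ratio, and among cells of at least 3000 UMIs it was 156 in turnover and 14.7 in autonomy, where the depth-standardised ratio was 20.4.

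Nab2, a corepressor that binds EGR factors and is itself induced by them, had 44 against 12 UMIs in turnover, a ratio of 34.5 (17.9 to 71.7), and 116 against 24 in autonomy, a ratio of 39.8 (25.5 to 64.6). Egr2, a relative of Egr1 that acts in selected thymocytes, had 29 against 22 UMIs in turnover and 59 against 6 in autonomy, ratios of 12.4 (6.88 to 22.6) and 80.9 (35.0 to 229). Among cells of at least 3000 UMIs Nab2 had 20.1 and 19.7 and Egr2 8.02 and 27.4. Fos, the partner of JUN proteins in AP-1, had 7 against 3 UMIs and 43 against 42. Jun had 3 against 17 UMIs in turnover and 10 against 140 in autonomy, where its ratio was 0.588. Dusp6, another MAP kinase phosphatase, had ratios of 2.05 and 2.52. Egr3, Nr4a3, Fosb and Spry1 had at most 7 UMIs in the members of a library, and Dusp5 had ratios of 1.26 and 1.55.

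Surface receptors and costimulators formed a group of 15, of which 9 reached the minimum and 5 were higher in both libraries: Cd2, Cd6, Cd69, Cd28 and Cd27, with none of the 9 lower. The share higher in both over all compared genes was 2.12%. The group median was a log2 ratio of 0.85 in turnover and 0.74 in autonomy, against -0.06 and -0.12 over all compared genes. Cd2, an adhesion receptor of T cells, stood at 702 CPM against 85.6 in turnover, a ratio of 8.20 (7.16 to 9.38), and at 729 against 130 in autonomy, a ratio of 5.59 (5.05 to 6.18). Every turnover cell with 6 or more Cd5 UMIs, 42 of 42, held a Cd2 UMI, and 59 of 61 did in autonomy.

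Cd6 encodes a scavenger receptor related to CD5. It stood at 619 CPM against 95.9 in turnover, a ratio of 6.46 (5.63 to 7.40), and at 535 against 142 in autonomy, a ratio of 3.78 (3.39 to 4.21). Cd5 and Cd6 are neighbours on chromosome 19 (GRCm38.p6), at chr19:10718107-10739026 and chr19:10789339-10830062, 50312 bases apart with 0 protein-coding genes between them. Cd28, the main costimulatory receptor, had ratios of 2.91 (2.67 to 3.18) and 2.42 (2.21 to 2.65), and Cd27, a TNF receptor family member, 1.80 (1.66 to 1.95) and 1.67 (1.55 to 1.79). Under the minimum, Cd53, a tetraspanin, had ratios of 2.32 (1.53 to 3.41) and 4.53 (3.59 to 5.70). Pdcd1, the gene of the inhibitory receptor PD-1, had 9 against 4 and 24 against 2 UMIs, while Cd40lg had 0 in every gate. Slamf6, Slamf1, Cd81 and Ly6e had ratios between 0.743 and 1.01.

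Among 16 transcription factors of selection and lineage choice, 11 reached the minimum and Tox, Gata3 and Id3 were higher in both libraries. The share over all compared genes was 2.12%. Gata3, a factor of the CD4 lineage, stood at 179 CPM against 47.0 in turnover, a ratio of 3.82 (3.01 to 4.82), and at 253 against 71.8 in autonomy, a ratio of 3.52 (3.0 to 4.12). Id3, an inhibitor of E proteins that is induced through ERK and EGR factors, stood at 975 against 318 CPM and at 1035 against 297 CPM, ratios of 3.06 (2.78 to 3.37) and 3.49 (3.23 to 3.76). In autonomy its level went from 661 CPM at 2 Cd5 UMIs to 1646 at 6 or more.

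Other factors passed the fold in 1 library or in neither. Lef1, a partner of TCF-1 in early T cells, had ratios of 1.83 (1.59 to 2.10) in turnover and 1.24 (1.12 to 1.37) in autonomy. Runx1 had 0.637 and 0.737 and Nfatc3 0.517 and 0.694. These 3 were past the fold in turnover and not in autonomy, a difference that was not tested. Tcf7, Satb1, Myb and Ets1, which set T cell identity, had ratios between 0.961 and 1.20. The lineage factors themselves were scarce: Zbtb7b, the switch of CD4 cells, had 0 UMIs in members of either library, and Runx3, its counterpart in CD8 cells, had 2 UMIs in turnover and 33 in autonomy, where its ratio was 2.01. The median of the 11 was a log2 ratio of 0.22 in turnover and 0.04 in autonomy.

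**Figure D3:**
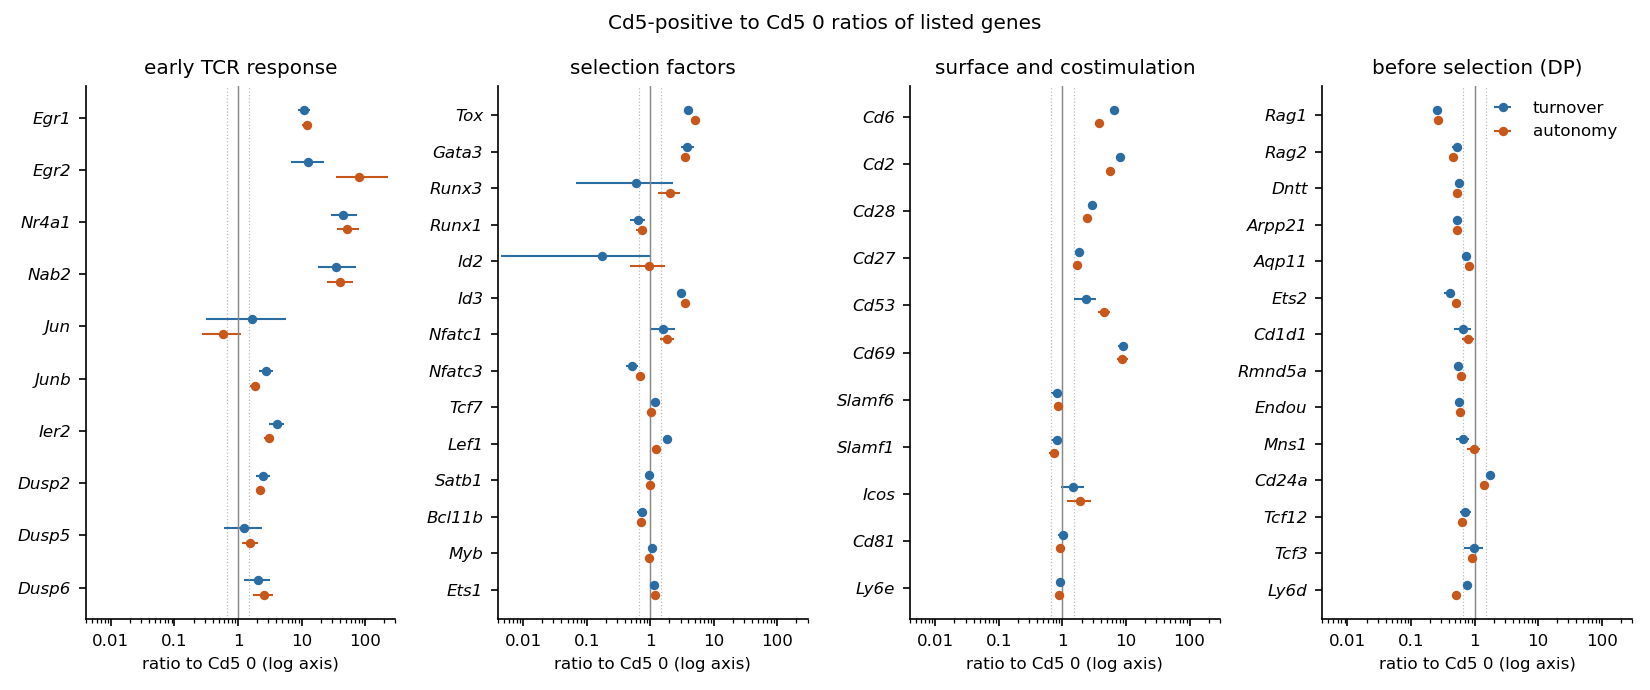
Ratio of Cd5-positive to Cd5 0 cells (x axis, log scale) with exact 95% counting intervals for genes of 4 lists, drawn for the genes reported here where both gates of both libraries held a UMI and had at least 20 together in each library. Blue is turnover and orange autonomy; Nr4a1, Nab2 and Egr2 show the highest ratios with wide intervals, and Rag1 the lowest of the genes expressed before selection.

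Most genes of the TCR machinery stood close to the reference. Of 20 genes 19 reached the minimum, 4 were higher and 1 lower in turnover, 3 higher and 1 lower in autonomy, and the medians were log2 ratios of 0.07 and -0.06. Over all compared genes 4.13% were higher and 9.15% lower in turnover, and 3.23% and 8.59% in autonomy. Trac, the constant gene of the alpha chain, was higher, at 409 CPM against 193 in turnover, a ratio of 2.12 (1.84 to 2.45), and at 277 against 142 in autonomy, a ratio of 1.96 (1.70 to 2.25). Tespa1, an adaptor needed for selection signals, had 1.65 and 1.76, and Ptpn6, which encodes the phosphatase SHP-1 that binds CD5 and other inhibitory receptors, had 3.01 (2.58 to 3.5) and 2.56 (2.25 to 2.90). Zap70, the kinase bound to the receptor, had 1.66 and 1.36. The CD3 genes Cd3e, Cd3d and Cd3g and the beta constant gene Trbc2 had ratios between 0.957 and 1.23.

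Cd4, the coreceptor gene, was lower. It stood at 488 CPM against 960 in turnover, a ratio of 0.509 (0.450 to 0.573), and at 590 against 960 in autonomy, a ratio of 0.614 (0.562 to 0.671). With the depth-standardised reference the ratios were 0.538 and 0.699, and the second no longer passed the fold. By class, Cd4 went from 635 CPM at 2 Cd5 UMIs to 471 at 3 to 5 and 225 at 6 or more in turnover, and from 679 to 620 and 378 in autonomy. Cd8a and Cd8b1, which the rule used, went the same way in turnover, from 3643 to 2534 CPM and from 5382 to 2642 CPM between 2 and 6 or more Cd5 UMIs.

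Genes expressed before selection were lower. Of 16 on the list 15 reached the minimum. In turnover 9 were lower and 1, Cd24a, was higher, in autonomy 9 were lower, and 7 were lower in both: Rag1, Rag2, Dntt, Arpp21, Ets2, Rmnd5a and Endou. Over all compared genes 9.15% were lower in turnover, 8.59% in autonomy and 4.22% in both. The list medians were log2 ratios of -0.62 and -0.70. Rag1 and Rag2 encode the recombinase that joins TCR segments, and Dntt the terminal transferase that adds bases at the joints.

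Rag1 had the lowest ratios of the list in both libraries. In turnover 235 UMIs gave 405 CPM in members against 1599 CPM in Cd5 0 cells, a ratio of 0.254 (0.222 to 0.289). In autonomy 357 UMIs gave 394 CPM against 1502, a ratio of 0.263 (0.236 to 0.292). The depth-standardised ratios were 0.291 and 0.320, and among cells of at least 3000 UMIs the ratios were 0.489 and 0.281. A Rag1 UMI was found in 33.8% and 47.7% of members against 88.6% and 92.5% of Cd5 0 cells. Within members, Rag1 went from 576 CPM at 2 Cd5 UMIs to 328 and 186 in the higher classes of turnover, and from 595 to 360 and 114 in autonomy. Rag1 and Egr1 UMIs were found together in 7 turnover and 14 autonomy cells.

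Rag2, which lies 5723 bases from Rag1 on chromosome 2, was lower by less, with ratios of 0.524 (0.448 to 0.608) and 0.455 (0.401 to 0.515). Dntt had 0.579 (0.538 to 0.623) and 0.527 (0.489 to 0.567). Arpp21 had 0.522 and 0.526, Ets2, an ETS family factor, 0.408 and 0.503, and Endou 0.569 and 0.587. Among turnover cells of at least 3000 UMIs 4 of these were no longer past the fold: Rag2 had 0.748, Dntt 0.696, Arpp21 0.681 and Ets2 0.733. Bcl2l1, the gene of the survival protein Bcl-xL, had 0.451 (0.327 to 0.608) and 0.572 (0.473 to 0.686), and 0.726 among turnover cells of at least 3000 UMIs.

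Ptcra, the gene of the pre-TCR alpha chain that pairs with TCR beta before the alpha chain is made, was lower too. It had 9 UMIs in turnover members, 15.5 CPM against 87.3, a ratio of 0.178 (0.0808 to 0.340). In autonomy it had 138 UMIs, 152 CPM against 541, a ratio of 0.282 (0.236 to 0.334). Other genes with the lowest shared ratios were Xrra1 at 0.149 and 0.188, Cldn4, a tight junction protein gene, at 0.216 and 0.165, Prodh, the proline dehydrogenase gene, at 0.181 and 0.270, B230118H07Rik at 0.286 and 0.204 and Slc6a19, an amino acid transporter gene, at 0.263 and 0.255. Tdrd5 had 0.435 and 0.161, Cep250 0.235 and 0.435, and Zfyve28 0.312 and 0.361. The lncRNA genes BB031773 and Nron had 0.298 and 0.144, and 0.387 and 0.265. Among turnover cells of at least 3000 UMIs 4 of these were within the fold, BB031773 at 0.868, Tdrd5 at 0.953, Zfyve28 at 0.752 and Nron at 0.669. B230118H07Rik was at 0.611 there, Prodh at 0.373, Xrra1 at 0.349, and Slc6a19 at 0.592 in turnover and 0.585 in autonomy. Several of these ratios rest on few UMIs. In turnover members Xrra1 had 5, Prodh 7, Cldn4 8, Zfyve28 9, Nron 10, Cep250 11 and BB031773 17. In autonomy members BB031773 had 8, Xrra1 and Tdrd5 13 each, and Cldn4 17. With under 20 in members, these genes reached the pooled minimum through their Cd5 0 UMIs, and their low ratios are a description.

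E proteins bind DNA at E-boxes, and Id3 holds them off it. Id3 was higher and Ptcra lower in the members, and a link between them was not tested. A stretch before Ptcra is shown beside one before Cd5, 5′ to 3′ on the gene strand, from RefSeq for GRCm38.p6. E-boxes (CANNTG, a motif that reads as CANNTG on both strands) are in capitals. The Cd5 stretch, chr19:10739027-10739224, holds the 198 bases just before the gene extent given above. It runs from 250 to 53 bases before another annotated start, which lies 52 bases inside that extent. The Ptcra stretch, chr17:46763713-46763962, runs from 250 bases to 1 base before the start of its gene extent.
Cd5: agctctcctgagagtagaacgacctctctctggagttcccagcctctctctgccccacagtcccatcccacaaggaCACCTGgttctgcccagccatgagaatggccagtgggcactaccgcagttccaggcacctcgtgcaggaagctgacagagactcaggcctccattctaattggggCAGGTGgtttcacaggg
Ptcra: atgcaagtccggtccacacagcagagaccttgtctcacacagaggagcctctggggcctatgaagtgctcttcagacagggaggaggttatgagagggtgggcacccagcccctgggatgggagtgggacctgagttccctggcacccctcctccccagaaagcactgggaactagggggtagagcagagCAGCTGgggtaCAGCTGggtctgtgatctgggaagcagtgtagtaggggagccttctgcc
Cd5 holds CACCTG and CAGGTG, and Ptcra holds CAGCTG at both of its sites, the nearer 44 bases before the start. Of 32851 promoter windows of 250 bases 66.2% hold an E-box, so these matches describe the letters and set neither gene apart.

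Several genes outside these lists were among the highest in both libraries. Ikzf2, the gene of Helios, a factor seen in cells with strong TCR signals, stood at 386 against 45.1 CPM in turnover, a ratio of 8.56 (7.11 to 10.3), and at 235 against 26.9 in autonomy, a ratio of 8.76 (7.19 to 10.7). Clec2d, a lectin ligand gene 80788 bases from Cd69 on chromosome 6, had ratios of 5.6 (4.77 to 6.56) and 5.55 (4.72 to 6.52). Rgs10, a regulator of G protein signals, had 4.37 and 3.53, Shisa5, a membrane protein gene linked to cell death, 4.23 and 3.35, and Arap2, a GTPase-activating protein gene, 3.31 and 4.01.

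The strong-signal and death list held 14 genes, of which 5 reached the minimum, with Ikzf2 and Bcl2l11 higher and Bcl2l1 lower in both libraries. Over all compared genes 2.12% were higher and 4.22% lower in both. Bcl2l11, the gene of the death protein Bim, had ratios of 1.99 (1.40 to 2.78) and 1.55 (1.23 to 1.94). Neither call held under every alternative: the autonomy ratio was 1.14 without large TRB clones and 1.22 at Itm2a 0, and the turnover ratio was 1.37 among cells with a productive TRA and 1.46 among cells with a Cd4 UMI. Under the minimum, Bcl2, the survival gene of selected cells, had 32 against 39 UMIs and 91 against 70, ratios of 7.72 (4.68 to 12.6) and 10.7 (7.75 to 14.8), and 2.29 and 8.22 among cells of at least 3000 UMIs. Ccr4, a chemokine receptor gene that comes on as cells move to the medulla, had 5.01 (3.18 to 7.76) and 5.95 (4.29 to 8.22). Of the 8 NF-kB genes, Nfkbid had 3.01 (1.84 to 4.78) and 6.23 (4.66 to 8.30), and Relb 3.62 (1.01 to 10.8) and 10.5 (6.05 to 18.5), both under the minimum, while the 2 that reached it, Nfkbia and Tnfaip3, stood between 0.838 and 1.05. Of the 10 migration genes 5 reached the minimum and 0 passed the fold in either library. Ccr9, the receptor that draws progenitors to the thymus, had 1.09 and 1.13.

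Genes of mature single positive cells were 17, of which 7 reached the minimum. Tmsb10, an actin-binding protein gene, and Gimap6, a GTPase gene of lymphocytes, were higher in both libraries, as were 2.12% of all compared genes. In turnover 3 of the 7 were higher and 1 lower, and in autonomy 2 were higher and 0 lower. The list medians were log2 ratios of 0.09 and 0.21, against -0.06 and -0.12 over all compared genes. Tmsb10 stood at 5284 against 2154 CPM in turnover, a ratio of 2.45 (2.36 to 2.55), and at 7483 against 1678 in autonomy, a ratio of 4.46 (4.33 to 4.59). Gimap6 had 1.89 (1.70 to 2.10) and 2.05 (1.86 to 2.26). Klf2 had 6 UMIs in turnover members and 84 in autonomy members. Without the cells that held a UMI of Klf2, Ccr7 or Il7r, which left 216 and 240 members, Egr1 had ratios of 11.2 and 12.8, Rag1 0.255 and 0.287 and Tmsb10 2.57 and 4.04.

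Transcripts of other cell types were low. The 10 macrophage genes summed to 200 CPM in turnover members and 287 in autonomy members, against 240 and 419 in Cd5 0 cells. Cst3 made up 185 and 197 of these, and 4 and 1 of the 10 were at 0. The 7 dendritic cell genes summed to 10.4 and 48.6 CPM, with 5 and 3 at 0. The 7 B cell genes summed to 731 and 591 CPM, of which Ighm gave 681 and 563, and Cd79a, Ms4a1, Igkc and Pax5 were among those at 0. The 10 genes of innate and gamma delta T cells summed to 12.1 and 161 CPM against 38.5 and 44.6, with Zbtb16 at 0, and Nkg7, a cytotoxic granule gene, gave 57 UMIs in 8 autonomy cells. The 5 erythroid genes were at 0, and the 6 stromal genes summed to 6.90 and 2.21 CPM. Ribosomal protein genes had list medians of -0.02 and 0.33 on the log2 scale, and mitochondrial genes -0.13 and -0.15.

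Not every member carried the early response transcripts. A UMI of Egr1, Egr2, Nr4a1, Nab2 or Cd69 was found in 109 turnover and 144 autonomy members, and 116 and 133 had none of them, at median depths of 2354 against 2326 UMIs in turnover and 3003 against 2722 in autonomy. In turnover, members with such a UMI had 280 CPM of Rag1 and the others 526. In autonomy the values were 239 and 582. Id3 stood at 1269 against 689 CPM in turnover and at 1506 against 468 in autonomy, and Ikzf2 at 557 against 221 and 325 against 127.

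The members without those UMIs still differed from Cd5 0 cells. They had 516 CPM of Cd2 in turnover and 578 in autonomy, against 85.6 and 130 in Cd5 0 cells, and 421 and 292 CPM of Tox against 132 and 79.7. Their Rag1 ratios to Cd5 0 cells were 0.329 and 0.388. Absence of a UMI at this depth is not absence of the transcript.

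Rearranged TCR chains were read in a separate library and were not used to choose the cells. A productive TRA chain was found in 80.0% (74.2 to 85.0) of turnover members, 180 of 225, against 42.2% (40.3 to 44.1) of Cd5 0 cells. In autonomy it was found in 73.3% (67.7 to 78.4), 203 of 277, against 36.4% (34.7 to 38.2). The share followed the Cd5 class, from 58.5% at 1 UMI to 73.3% at 2 and 85.5% at 3 or more in turnover, and from 47.0% to 58.2% and 81.6% in autonomy. Cells with 2 or more Itm2a UMIs had 84.6% and 86.1%.

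The gap was present at matched depth. Among turnover cells of 2000 to below 3000 UMIs the shares were 86.8% of members and 42.6% of Cd5 0 cells, and in autonomy 79.5% and 38.7%. From 3000 to below 5000 UMIs the gap was narrower, 64.7% against 42.1% in turnover and 67.3% against 38.0% in autonomy. Members also had more V(D)J UMIs, a median of 41 against 25 per cell in turnover and 32 against 17 in autonomy, and their productive TRA chains rested on a median of 6 UMIs against 3 in both. More alpha chain RNA and more cells with a chain cannot be told apart from these shares. In turnover 83.5% of members with an early response UMI and 76.7% of the others had a productive TRA, and in autonomy 83.3% (76.2 to 89.0) and 62.4% (53.6 to 70.7).

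When both gates were limited to cells with a productive TRA, an alternative chosen after the data were seen, 180 and 1131 turnover cells and 203 and 1120 autonomy cells remained. Egr1 then had ratios of 5.33 and 8.02, Cd69 5.81 and 6.60, Tox 3.19 and 4.62 and Cd2 7.27 and 5.70. Rag1 had 0.246 and 0.247, and Ptcra 0.0803 and 0.189. The ratios of Egr1 were thus smaller by more than 1.5 times in turnover, and those of Rag1 close to the values without this limit.

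A productive TRB chain was found in 92.4% (88.2 to 95.5) of turnover members and 89.5% of Cd5 0 cells, and in autonomy in 91.7% (87.8 to 94.7) and 68.9% (67.2 to 70.5). Autonomy members with both chains were 68.2% against 27% of Cd5 0 cells, and turnover members 73.3% against 38.3%. At least 2 productive TRA chains were found in 13.8% (9.56 to 19.0) of turnover members and 3.81% of Cd5 0 cells, and in 11.9% (8.34 to 16.3) and 2.86% in autonomy.

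TRA rearrangement starts with J segments at the 5′ end of the locus, which carry the highest numbers, and repeated rounds move to lower numbers. The median TRAJ segment of productive chains was 32 in turnover members and 26 in Cd5 0 cells, and 22 and 18 in autonomy. Segments numbered 48 or above made up 20.6% (15.4 to 26.6) of the 214 chains of turnover members against 10.7% (9.02 to 12.5) in Cd5 0 cells. In autonomy they made up 9.32% (5.93 to 13.8) of 236 chains against 5.54% (4.32 to 6.98), and there the intervals overlapped. Chains that were joined but not productive showed medians of 37 against 27 in turnover and 28 against 21 in autonomy.

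**Figure D4:**
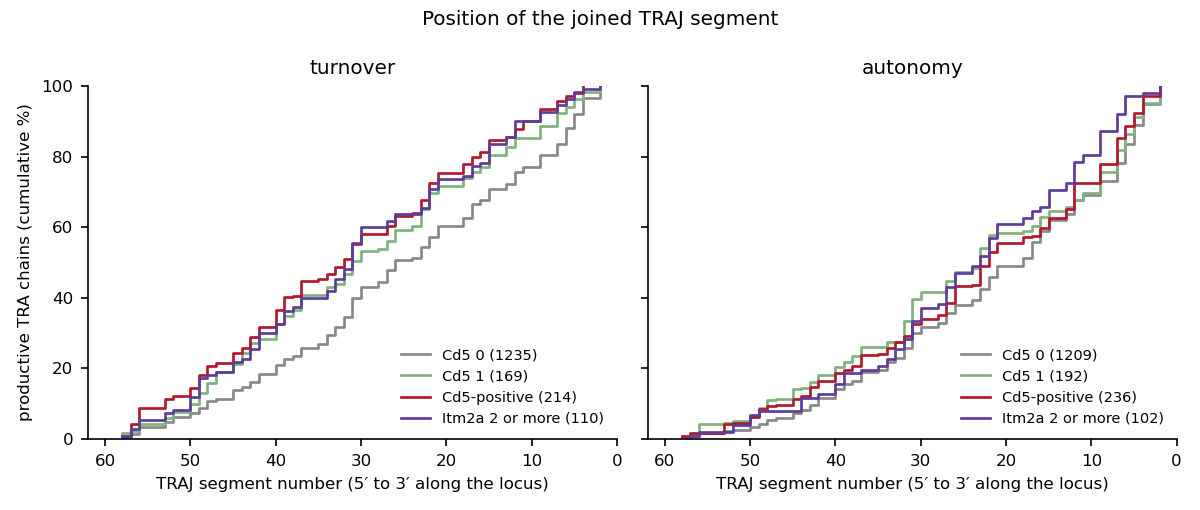
Cumulative share of productive TRA chains (y axis, percent) by the number of the joined TRAJ segment (x axis, highest numbers first, as along the locus 5′ to 3′) in turnover (left) and autonomy (right), with the number of chains of each group in the legend. The red line of Cd5-positive cells runs above the grey line of Cd5 0 cells over most of the range, by more in turnover, where the medians were 32 and 26, than in autonomy, where they were 22 and 18.

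TRB chains were far more often shared between cells in autonomy. In turnover 6 of 208 members with a productive TRB (2.88%) had a chain that another cell of the same V(D)J table also carried, and in autonomy 217 of 254 (85.4%). The 254 autonomy members held 165 different chains, and 129 of them carried a chain found in 10 or more cells. The most frequent chain among members was in 16 cells. Cd5-positive autonomy cells thus carried many chains, and many of the cells shared one.

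The 30 autonomy chains with at least 20 gated cells each were carried by 1217 gated cells, of which 95 were Cd5-positive, and the share per chain ran from 0 to 33.3% with a median of 7.94%. A cell with more than a single TRB chain enters the share of each. The CDR3 of 3 of the chains was called with an unusual start, and without these the median was 8.33%. The largest chains and some at either end of that range are shown because the share of Cd5-positive cells could be counted within each. Chains of 42, 27 and 20 gated cells, the first with an unusual start, also had 0 Cd5-positive cells and are not shown. Each line is the CDR3 from the conserved cysteine to the conserved phenylalanine, with capitals for bases outside the V start and J end that most chains with the same segments share.
TRBV13-2 TRBJ2-4: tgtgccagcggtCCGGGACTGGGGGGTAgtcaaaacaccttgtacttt
TRBV29 TRBJ2-5: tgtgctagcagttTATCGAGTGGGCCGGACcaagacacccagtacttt
TRBV3 TRBJ2-2: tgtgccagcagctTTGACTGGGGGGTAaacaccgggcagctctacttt
TRBV3 TRBJ2-5, first: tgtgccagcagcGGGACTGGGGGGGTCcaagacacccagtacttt
TRBV3 TRBJ2-5, second: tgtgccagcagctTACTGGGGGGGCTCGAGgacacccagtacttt
TRBV5 TRBJ2-4: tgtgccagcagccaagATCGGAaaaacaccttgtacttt
The TRBV13-2 and TRBV29 chains each had 174 gated cells, of which 165 and 167 carried a second TRB chain. Of these 174, 9 (5.17%, 2.39 to 9.59) and 11 (6.32%, 3.20 to 11) were Cd5-positive. No other chain of the 30 had more than 7 cells with a second chain. The TRBV13-2 and TRBV29 chains were thus largely carried by the same cells. Their shares count those cells under both chains and are not those of 2 separate clones. The TRBV3 TRBJ2-2 chain had 16 of 131 (12.2%, 7.15 to 19.1).

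Among smaller chains the first TRBV3 TRBJ2-5 chain had 8 of 24 cells (33.3%, 15.6 to 55.3) and the TRBV5 chain 5 of 25 (20%, 6.83 to 40.7). The second TRBV3 TRBJ2-5 chain had 0 of 33, which leaves an exact upper limit of 10.6%. Cells of the first had a median of 3238 UMIs and those of the second 2126, and the part of depth in this difference was not tested. These chains were picked for their shares, and the values are a description.

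Cd5-positive cells of the libraries were then compared with each other, with a 2-fold rule. Of 4678 genes, 391 were higher in autonomy (8.36%) and 38 lower (0.812%), at a median log2 ratio of 0.08. TMM scaling moved all log2 ratios down by 0.10 and gave 318 higher and 53 lower genes, so 85.7% of called genes were higher in place of 91.1%. Transcripts of selection were near equal for some genes and not for others. The autonomy to turnover ratio was 1.07 (0.891 to 1.3) for Egr1, 1.07 (0.844 to 1.36) for Nr4a1, 1.04 (0.917 to 1.18) for Cd2, 1.06 (0.956 to 1.18) for Id3 and 0.973 (0.823 to 1.15) for Rag1. Cd69 had 0.621 (0.513 to 0.751), Ikzf2 0.609 (0.502 to 0.738) and Tox 0.784 (0.671 to 0.917), and the Cd5 0 cells of the libraries had nearly the same ratios for the first pair, 0.633 and 0.595. Gata3 had 1.41 (1.11 to 1.80), Nab2 1.69 (1.18 to 2.45) and Ier2 1.76 (1.35 to 2.31). In Cd5 0 cells the ratio was 1.53 for Gata3, 2.37 for Ier2, 1.52 for Cd2, 0.603 for Tox, 0.984 for Egr1 and 0.939 for Rag1. Gata3 and Ier2 were thus not further apart between the libraries in members than in Cd5 0 cells. Of the early response list 9 genes reached the minimum, and Dusp2 at 3.11 (2.43 to 4.03) and Dusp5 at 3.78 (1.98 to 7.95) were higher, with ratios of 3.44 and 3.08 in Cd5 0 cells.

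Notch-linked genes were among those that differed most, and they differed in Cd5 0 cells too. Dtx1, a Notch target gene for an E3 ligase, had 0 UMIs in turnover members and 185 in autonomy members, which makes it at least 39.5-fold higher, with the floor at 3 counts over the turnover members. In Cd5 0 cells its ratio was 314 (144 to 857). Ptcra had 9.82 (5.03 to 21.9) against 6.20 (5.63 to 6.83) in Cd5 0 cells, Notch1 9.15 (4.28 to 23.3) against 8.13 (6.91 to 9.62) and Il2ra, the IL-2 receptor alpha gene, 10.5 (3.38 to 52.5) against 6.92 (5.71 to 8.45). Of 10 Notch and DN3 genes 4 reached the minimum and 4 were higher, against 8.36% of all 4678 compared genes. The minimum was set at the pooled level. Dtx1, Ptcra and Il2ra, with 0, 9 and 3 UMIs in turnover members, reached it through their autonomy UMIs. That count was thus largely set by the filter and is a description. Yet within autonomy Dtx1 was at 204 CPM in Cd5-positive and 346 in Cd5 0 cells, Notch1 at 110 against 237 and Il2ra at 54.1 against 147.

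Other genes higher in autonomy members were Socs3, an inhibitor of cytokine signals, at 18.3 (4.83 to 154) against 16.5 (13.5 to 20.4) in Cd5 0 cells, Foxo1, a factor of naive T cells, at 13.0 (4.87 to 48.7) against 7.20 (5.64 to 9.31), Hdgfl3 at 12.5 (4.69 to 47.0) against 16.0 (12.8 to 20.2), and Itgb7, an integrin chain gene, at 14.1 (5.86 to 44.3) against 8.64 (6.28 to 12.2). Interferon genes reached the minimum for 7 of 13, and 7 were higher, with Ifi27l2a at 15.8 (9.62 to 27.9) against 9.78 (7.77 to 12.4). The share higher over all compared genes was 8.36%. Ifi27l2a had 16 UMIs in turnover members and 395 in autonomy members, so it too reached the pooled minimum through autonomy. The 13 genes summed to 357 CPM in turnover members, with 3 at 0, and to 1530 in autonomy members. A pooled minimum favours genes that are high in autonomy, so the count of 7 is a description as well. Xist, which silences an X chromosome, had 0 UMIs in turnover members and 291 in autonomy members, at least 62.1-fold higher.

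A few ratios in members stood apart from those in Cd5 0 cells and rested on few cells. Plac8 had 38.4 (6.64 to 1543) against 1.13, with 30 of its 60 autonomy UMIs in 1 cell. Nkg7 had 0 and 57 UMIs, at least 12.2-fold higher, against 1.06. Myc, the gene of a factor that drives cell growth, had 12 (3.89 to 59.7) against 1.25 (0.927 to 1.70), its 56 autonomy UMIs in 15 cells. H2-K1, a class I MHC gene, had 10.9 (6.24 to 20.8) against 3.46 (2.89 to 4.16). Without cells with a UMI of Klf2, Ccr7 or Il7r the ratios were 5.37 for Plac8, 4.35 for Myc, 4.39 for H2-K1 and 7.78 for Ifi27l2a, while Socs3 had 18.0 and Foxo1 12.1. Between 2000 and 5000 UMIs Plac8 had 1.39, and among cells with a Cd4 UMI Myc had 1.14 and Plac8 2.86, so the calls of Plac8 and Myc each ended under a change of cells.

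**Figure D5:**
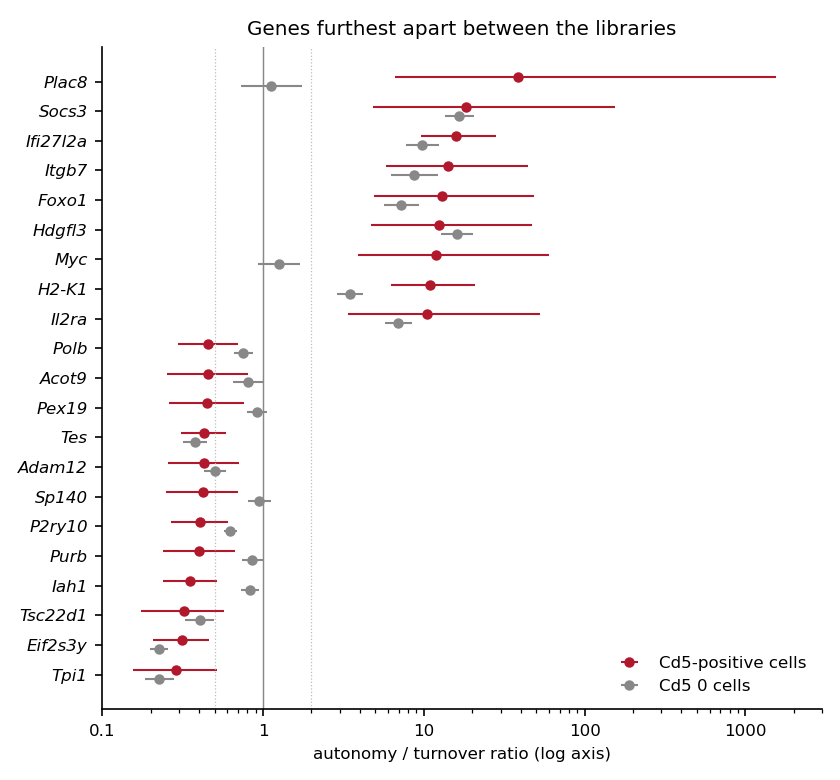
Autonomy to turnover ratio (x axis, log scale) with exact 95% counting intervals in Cd5-positive cells (red) and in Cd5 0 cells (grey) for the named genes furthest apart between the libraries, leaving out Xist, Dtx1 and Nkg7, which had 0 UMIs in turnover members. Dotted lines mark 2-fold; Socs3, Foxo1 and Tes lie close in both kinds of cell, and Plac8, Myc and H2-K1 lie further from 1 in Cd5-positive cells.

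Genes lower in autonomy members were fewer. Tpi1, a glycolysis enzyme gene, had 0.288 (0.156 to 0.514) against 0.226 in Cd5 0 cells, Tsc22d1 0.320 (0.174 to 0.569) against 0.403, Tes 0.429 (0.310 to 0.591) against 0.379 and Adam12, a metalloprotease gene, 0.427 (0.255 to 0.705) against 0.503. The Y-linked gene Eif2s3y had 0.312 against 0.225. Purb, Sp140 and Pex19 had 0.402, 0.422 and 0.450 in members and 0.858, 0.947 and 0.918 in Cd5 0 cells. P2ry10 had 0.404 against 0.626, and Acot9 and Polb 0.455 and 0.457 against 0.807 and 0.755. With cells thinned to 1000 UMIs Purb had 0.722, Adam12 0.764 and Acot9 0.638, and among cells with a Cd4 UMI Pex19 had 0.522 and Polb 0.507, none of them past the fold. The difference between kinds of cell was not tested for any of these genes.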

How the data were processed

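The deposited tables held UMI counts per gene and barcode, not normalised, made by the authors with Cell Ranger 3.0.2 on mm10, per the submitters' processing notes, which also list Seurat 3.1.3.9002; the V(D)J tables held read and UMI counts per contig as deposited by the authors. The gene models and the V(D)J reference are not given in the sources used here. Per-sample columns left unused numbered 0.

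Cells of each library were chosen by the stated rule, UMIs were summed per gate, and ratios of CPM got a conditional exact binomial 95% interval. Genes needed an expected 20 UMIs in the smaller gate of both libraries. Calls used 1.5-fold, or 2-fold between libraries. Shares have exact Clopper-Pearson intervals. V(D)J contigs were joined by barcode within a condition. No doublets were called or removed; the limit of 10000 UMIs was tried instead. PCR and cell sampling noise beyond counting is not in the intervals. The calculation was checked on simulated data.

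Cd5, Egr1, Tox and Cd69 were always named. Beside them stand the 12 genes with the highest and the 12 with the lowest geometric mean of the 2 ratios among those past the fold the same way in both libraries with and without depth standardisation, the 12 furthest apart each way between libraries, and members of the lists. TCR segment genes were not named. A few list genes counted in the totals are not reported here. The members and lists were chosen with earlier results of these data known.

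Alternatives were TMM factors, thinning to 1000 UMIs (seed 7), depth limits, other count minimums, other cell filters and leaving out large clones. Gene symbols matched RefSeq GRCm38.p6 for 25166 of 31053 genes. TMM factors came from edgeR 4.0.16 in R 4.3.3, intervals from scipy 1.17.1, tables from pandas 2.3.3 and numpy 2.4.6 and figures from matplotlib 3.10.9, under Python 3.11.15.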

Additional observations from a re-analysis of the deposited data

Results flagged for a closer look

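Iah1, an esterase gene, and Zfp511, a zinc finger gene, were past the 1.5-fold rule in opposite directions in the 2 libraries. Iah1 had a Cd5-positive to Cd5 0 ratio of 1.52 (1.18 to 1.93) in turnover, from 78 UMIs in members and 483 in Cd5 0 cells, and of 0.647 (0.463 to 0.883) in autonomy, from 43 and 547 UMIs. Zfp511 had 1.64 (1.13 to 2.34) from 37 and 212 UMIs in turnover and 0.639 (0.415 to 0.945) from 27 and 348 UMIs in autonomy. With the depth-standardised reference the ratios were 1.63 and 0.676 for Iah1 and 1.71 and 0.661 for Zfp511. The difference between the libraries was not tested, since each condition had 1 library. Of 4483 genes compared, 3 had opposite calls. The third, chosen here after its values were seen, was the TCR segment gene Trbv12-1, with ratios of 0.625 (0.537 to 0.726) in turnover and 2.35 (1.99 to 2.76) in autonomy, where many cells share TRB chains.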

How the results depend on the processing

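No paired analysis was possible because each condition had 1 library per assay. The counts called depended on the cells and on the gene minimum. They are given in the order turnover higher and lower, autonomy higher and lower, both libraries higher and lower, then autonomy against turnover higher and lower. Thinning to 1000 UMIs gave 100, 224, 90, 185, 51, 93, 165 and 22. An expected minimum of 40 UMIs gave 97, 197, 85, 189, 54, 122, 164 and 10, and a minimum of 5 gave 538, 1178, 394, 1038, 222, 440, 1054 and 244. Requiring a Cd4 UMI gave 101, 273, 93, 195, 58 and 88, and 22 lower between libraries. Cells of 3000 or more UMIs gave 113 lower in turnover, 77 higher and 103 lower in autonomy, and 43 and 36 in both. Itm2a at 0 gave 241 lower in autonomy and 122 lower in both. TMM gave 222 higher and 237 lower in autonomy, and leaving out cells with large TRB clones gave 70 lower between libraries. All but TMM changed the cells or the genes that reached the minimum, 1755 genes at 3000 or more UMIs, 3297 with a Cd4 UMI and 7822 at a minimum of 5 in place of 4483, and TMM changed the scaling alone. Thinning gave Cd5-positive shares of 3.29% and 3.01%. In Cd5 0 cells the productive TRB share was 91.0% in turnover with depth weights, and in autonomy 73.4% among cells with any contig and 43.5% without large clones. Their TRA share in autonomy was 38.3% with depth weights, 38.8% among cells with any contig and 34.0% without large clones. The TRB share of autonomy members was 84.5% without large clones, a setting that removes cells with a TRB by construction. Settings on TRA chains, on large clones in the Cd5 comparison and in the chain shares, on Klf2, Ccr7 or Il7r, and on 2000 to 5000 UMIs were chosen after the data were seen. Counted per gene, comparison and setting, 1239 ratios of single genes stayed within their counting interval, 281 moved outside it and 0 reversed. Only a ratio past the fold could count as reversed. Many of these genes were named for their ratios, and the settings reuse the same cells, so the 0 is a description. Egr2, Egr3, Nr4a3 and Fosb rest on few UMIs, and a gene without a UMI in a cell may still be transcribed there.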

Other observations

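Single genes of DNA replication and division were lower than in the reference or within the fold in Cd5-positive cells. The rule had already left out cells with Mki67 or Top2a from both gates. Of the 17 on the list 9 reached the minimum, 3 were lower in turnover and 2 in autonomy, and 0 were higher. Over all compared genes 9.15% were lower in turnover and 8.59% in autonomy. The median of the 9 was a log2 ratio of -0.36 in turnover and -0.19 in autonomy, while the summed level of the 17 was higher in members, 3455 against 3131 CPM and 4937 against 4044 CPM. Mcm2 and Mcm7, subunits of the replicative helicase, were lower in both libraries, with ratios of 0.604 and 0.619 and of 0.594 and 0.589. Hmgb2, a chromatin protein gene of dividing cells, had 0.587 in turnover and 0.875 in autonomy.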
